A study of Cucumis melo with 30 samples.

Results

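Of the 27427 genes counted in ripening melon fruit, 2 with closely numbered identifiers are described here, MELO3C024771 and MELO3C024766. MELO3C024771 has been reported as CmAAT1, an alcohol acyltransferase of ester aroma, and MELO3C024766 has no name in these sources. Both were chosen from the measured values: the first is the most counted gene from day 25 on, and the second is switched on in the same period. Their rise with age is therefore given as a description without a test, while tests are confined to differences between the cultivars, which the choice did not use. No file used here pairs MELO3C024771 with the name CmAAT1, so the name could not be checked.

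The libraries come from fruit of oriental melon (Cucumis melo). Each belongs to 1 of 2 cultivars, labelled HDB-OF (HDB below) and YMR-WF (YMR below), and was taken 5, 15, 25, 30 or 35 days after anthesis, when the flower opens. Each of the 10 combinations had 3 libraries, and the labels give no treatment and no genotype beyond the cultivar. The labels say only that the tissue is fruit, not whether flesh, rind or seeds were included, and with unnamed identifiers the tissue could not be checked against its markers.

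Alcohol acyltransferases join an alcohol to an acyl group carried by coenzyme A and so make esters, the volatiles that give ripe melons much of their fruity smell. The alcohols and acyl groups come from the breakdown of fatty acids and amino acids. In melons that ripen with a burst of the hormone ethylene, transcripts of alcohol acyltransferases are known to accumulate during ripening.

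Total counts lay between 17299247 and 23261097 per library. The unit of level is CPM, counts per 1000000 counts of a library after TMM scaling, which adjusts for composition. It is given as mean ± SD over 3 libraries (n = 3). The TMM factors were lowest in the YMR libraries of day 25, from 0.719 to 0.783, against 0.961 to 0.98 in HDB at that day, so cultivar differences at day 25 depend on the scaling more than at the other days. Whether replicate libraries were made from different fruits or plants is not stated, so the p-values here reflect only how far these libraries varied, part of which may be technical. In whole tissue, fewer cells of a type and less RNA per cell cannot be told apart.

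MELO3C024771 was nearly silent in young fruit and was the most counted gene in all 18 libraries of days 25, 30 and 35. In HDB the 3 libraries of day 5 had 111, 244 and 47 counts, and those of day 15 had 37, 58 and 136. In YMR the counts were 67, 80 and 40 at day 5 and 60, 107 and 48 at day 15. The 2 days overlapped in both cultivars, with means of 6.34 ± 4.7 and 3.09 ± 2.0 CPM in HDB and 2.57 ± 0.72 and 3.25 ± 1.5 CPM in YMR, so no rise larger than the spread between libraries was seen over this step.

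At day 25 the libraries of HDB had 22256, 20336 and 22185 CPM of MELO3C024771, and those of YMR had 14612, 17901 and 15087 CPM. From day 15 to day 25 the mean had risen 6996-fold in HDB (11181-fold without replicate 3 of day 15, the highest of its group) and 4876-fold in YMR. After that the level moved little by comparison. HDB stood at 21712 ± 1772 CPM at day 30 and 18204 ± 1404 at day 35, and YMR at 26579 ± 2247 and 26446 ± 2673. As a share of its highest TMM-scaled group mean, HDB had reached 99.5% by day 25, whereas YMR had reached 59.7%. The YMR libraries of days 30 and 35 overlapped, and which day was highest depended on the scaling. Scaled by total counts, YMR had 22382 ± 1560 CPM at day 30 and 23988 ± 2352 CPM at day 35.

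MELO3C024766 started lower still. No HDB library of day 5 held a count of it, which allows a level of up to 0.0478 CPM over the group (3 counts), and the YMR libraries of day 5 held 3, 1 and 0 counts. By day 15 every library held some, with 64, 24 and 54 counts in HDB and 42, 82 and 25 in YMR. The means of day 15 were 2.0 ± 1.1 CPM in HDB and 2.26 ± 1.4 CPM in YMR, against 0 and 0.0561 ± 0.067 CPM at day 5, and the days did not overlap in either cultivar. No fold is given for this step, since HDB held no count at day 5 and replicate 1 of YMR day 5 held 3 of the 4 counts of its group. A step in MELO3C024766 was thus seen by day 15 in both cultivars. At day 5 MELO3C024771 already stood at 6.34 ± 4.7 CPM in HDB, so that a step of the size seen in MELO3C024766 would be smaller than its SD there. In YMR the day 5 level of MELO3C024771 was 2.57 ± 0.72 CPM, an SD that such a step would exceed, and its day 15 level was 3.25 ± 1.5 CPM. The onset of the 2 genes was not compared by a test.

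The main rise of MELO3C024766 came in the next interval, by 1756-fold in HDB and 1120-fold in YMR (1683-fold without replicate 2 of YMR day 15, the highest of its group). The HDB libraries of day 25 had 3459, 3463 and 3624 CPM and the YMR libraries 2579, 2598 and 2428 CPM. HDB was at its highest then and declined to 2548 ± 137 CPM at day 30 and 2266 ± 164 at day 35, which is 64.4% of its day 25 mean. YMR went up to 3060 ± 221 CPM at day 30 and down to 1748 ± 56 at day 35, which is 57.1% of its day 30 mean. Ranked by count within a library, MELO3C024766 stood between place 18 and place 57 in the libraries of days 25 to 35.

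**Figure D1:**
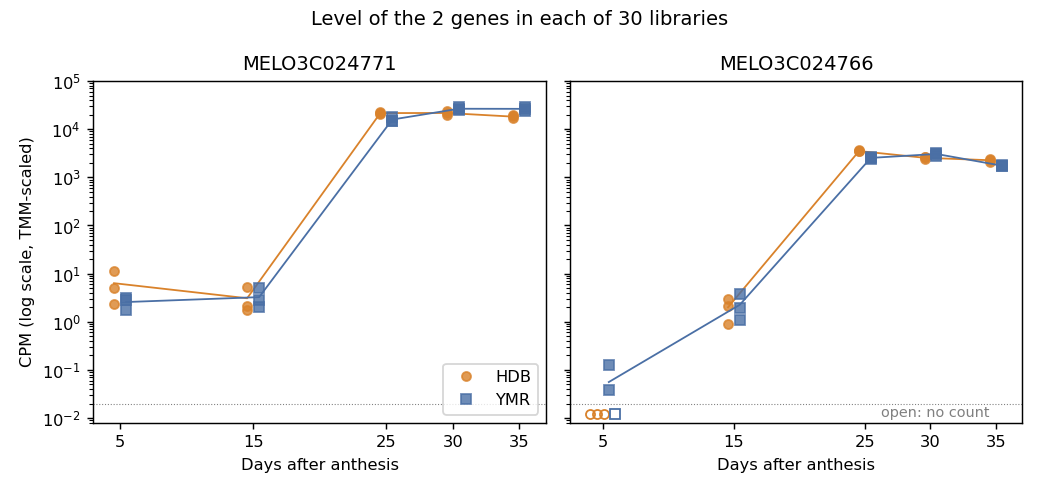
CPM of MELO3C024771 (left) and MELO3C024766 (right) on a log axis against days after anthesis. Filled points are libraries, lines join the group means, and open points under the dotted line are libraries with no count. MELO3C024771 stayed below 12 CPM up to day 15, MELO3C024766 rose from at most 0.13 CPM at day 5 to at least 0.886 CPM at day 15, and both stood at 1701 CPM or more from day 25.

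The order of the 10 group means differed between the genes. For MELO3C024771 it ran from YMR at days 30 and 35 through HDB at days 30 and 25, HDB at day 35 and YMR at day 25 to the 4 groups of days 5 and 15. The ranges of the libraries overlapped between YMR day 30 and YMR day 35, between HDB day 30 and HDB day 25, between HDB day 35 and YMR day 25, and between each neighbouring pair of the 4 young groups. For MELO3C024766 the order began with HDB day 25, followed by YMR day 30, HDB day 30, YMR day 25, HDB day 35 and YMR day 35. Among those 6 groups the only neighbours to overlap were HDB day 30 and YMR day 25. The young groups followed as YMR and HDB at day 15, which overlapped, and YMR and HDB at day 5, which overlapped too.

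The first question was whether the cultivars differed in level at each day. At day 5 MELO3C024771 was lower in YMR, by a log2 difference of -1.30 (SE 0.41, edgeR adjusted p = 0.0256 over 18426 genes), while 11.4% of all genes tested were called lower in YMR. The 2 cultivars nonetheless overlapped, and the size of the difference depended on 1 library. Without replicate 2 of HDB day 5, which held 244 of the 402 counts of its group, it was -0.54 (edgeR adjusted p = 0.37). The call was also lost, at a difference of similar size, without replicate 1 or replicate 3 of YMR day 5 (-1.39 and -1.09, edgeR adjusted p = 0.0528 and 0.111) and with only the 6 libraries of day 5 in the fit (-1.28, edgeR adjusted p = 0.166, with 14.6% of genes called). Over all 13 alternatives the adjusted p ran from 0.00342 to 0.37. MELO3C024766 had 0 counts in HDB and 4 in YMR at this day, and no fold is given (edgeR adjusted p = 0.209).

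At day 15, the last day before the main rise, both genes stood at similar means in both cultivars, and neither passed the test, against 40.9% of all genes. On the log2 scale YMR minus HDB gave 0.07 (SE 0.42, edgeR adjusted p = 0.921) for MELO3C024771 and 0.19 (SE 0.34, edgeR adjusted p = 0.69) for MELO3C024766. In YMR replicate 2 was the highest and replicate 3 the lowest library for both genes, whereas in HDB replicate 3 was highest for MELO3C024771 and replicate 1 for MELO3C024766. The sign of both differences changed with single libraries, so no direction can be given at day 15.

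At day 25 YMR was lower in both genes and the cultivars did not overlap in either. The share of all genes without overlap between the cultivars at day 25 was not computed. MELO3C024771 averaged 21593 ± 1088 CPM in HDB and 15867 ± 1778 in YMR, and MELO3C024766 averaged 3516 ± 94 and 2535 ± 93. In the fit to all 30 libraries the log2 differences were -0.44 (SE 0.36, edgeR adjusted p = 0.326) and -0.47 (SE 0.27, edgeR adjusted p = 0.164), neither past the threshold, where 48.3% of all genes passed. That fit gives each gene 1 spread for all days. Relative to the mean, the SD of these genes was far wider in young fruit, where counts were low and counting error is part of it. Whether this bears on the calls was not tested. For MELO3C024771 the SD was 28% to 74.2% of the mean in the groups of days 5 and 15 and 5.04% to 11.2% from day 25 on. For MELO3C024766 it was 52.6% to 119% in the young groups with counts and 2.67% to 7.23% later.

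With only the 6 libraries of day 25 in the fit, both genes were called lower in YMR, where 59.7% of the genes tested were called in either direction. The log2 differences were then -0.50 (SE 0.15, edgeR adjusted p = 0.0143) and -0.53 (SE 0.11, edgeR adjusted p = 0.00195). Over the 13 alternatives the adjusted p ran from 0.0143 to 0.474 for MELO3C024771 and from 0.00195 to 0.265 for MELO3C024766. Scaling by total counts alone gave larger differences, -0.80 and -0.82 (edgeR adjusted p = 0.0542 and 0.00846) and shifted the median over all genes to -0.28 (54.3% of genes called). The direction at day 25 was the same under every alternative computed.

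At day 30 the means of both genes were higher in YMR, with log2 differences of 0.29 (SE 0.36, edgeR adjusted p = 0.578) for MELO3C024771 and 0.26 (SE 0.27, edgeR adjusted p = 0.5) for MELO3C024766. Neither passed the test, while 33.4% of all genes did. How many of all genes showed no overlap between the cultivars at day 30 was not computed. In both genes the cultivars did not overlap in TMM-scaled CPM. Scaled by total counts they overlapped in both genes, with means of 21655 ± 1247 and 22382 ± 1560 CPM for MELO3C024771 and 2543 ± 61 and 2577 ± 156 CPM for MELO3C024766, HDB first in each pair. The 6-library fit did not call them either (edgeR adjusted p = 0.116 and 0.108, with 42.5% of genes called), and no difference between the cultivars beyond the choice of scaling was detectable at day 30.

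At day 35 the 2 genes stood on opposite sides. The HDB libraries had 16690, 18460 and 19462 CPM of MELO3C024771, and the YMR libraries had 29115, 23769 and 26454 CPM. Of MELO3C024766 the HDB libraries had 2078, 2341 and 2378 CPM and the YMR libraries 1810, 1701 and 1734 CPM. All YMR libraries were thus above all HDB libraries in the first gene and below them in the second, and this held under total-count scaling as well. The share of all genes separated in this way at day 35 was not computed.

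In the fit to all libraries the log2 differences of day 35 were 0.54 (SE 0.36, edgeR adjusted p = 0.23) for MELO3C024771 and -0.37 (SE 0.27, edgeR adjusted p = 0.275) for MELO3C024766, neither past the threshold, which 47.7% of all genes passed. With only the 6 libraries of day 35 both were called, at 0.55 (SE 0.15, edgeR adjusted p = 0.0114) and -0.37 (SE 0.11, edgeR adjusted p = 0.0177), where 57.8% of the genes tested were called. Over the 13 alternatives the adjusted p ran from 0.0114 to 0.382 for the first gene and from 0.0177 to 0.446 for the second, with an unchanged sign in each.

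**Figure D2:**
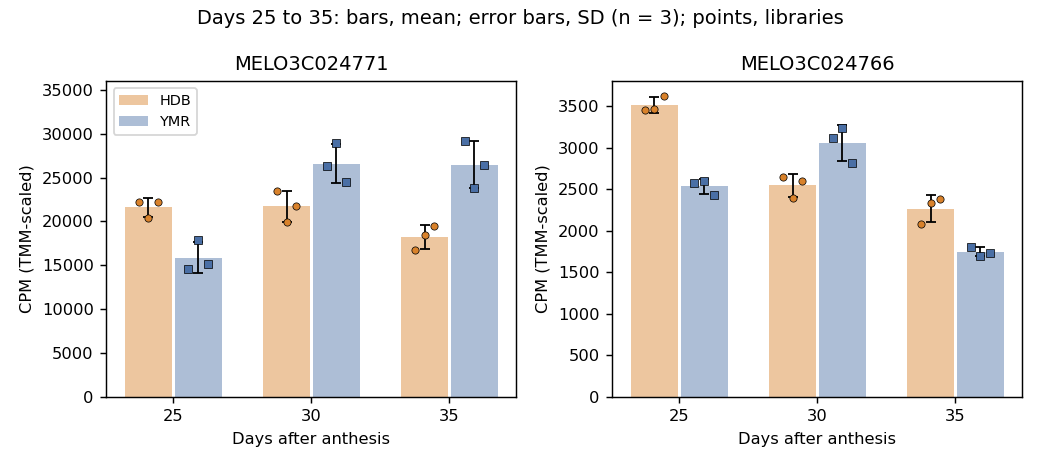
CPM of MELO3C024771 (left) and MELO3C024766 (right) at days 25, 30 and 35, with bars for the mean, error bars for the SD (n = 3) and points for libraries. YMR is below HDB in both genes at day 25, and at day 35 it is above HDB in MELO3C024771 (26446 against 18204 CPM) and below it in MELO3C024766 (1748 against 2266 CPM).

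**Figure D3:**
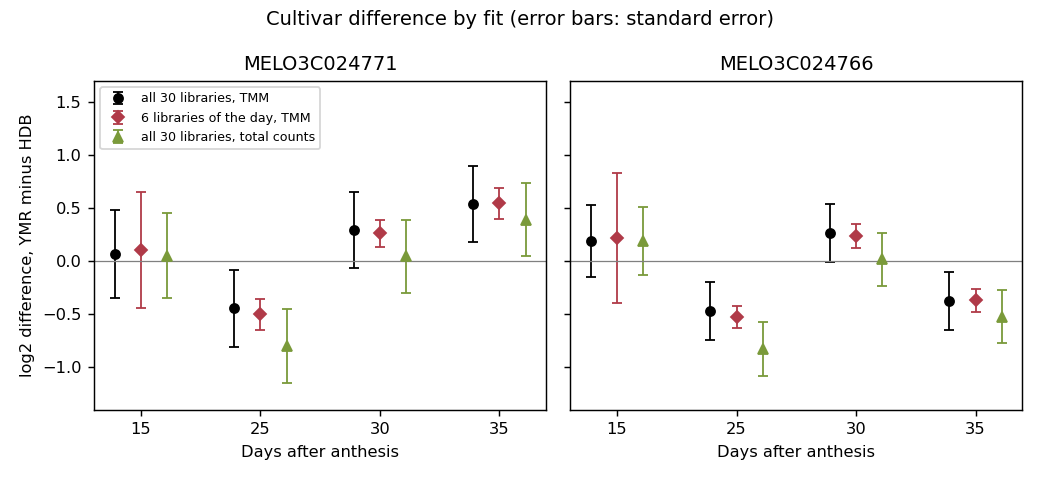
Log2 difference between the cultivars, YMR minus HDB, with its standard error, for both genes at days 15 to 35 in 3 fits. The estimates of the 2 TMM fits lie close together and their errors do not: at day 25 the standard error for MELO3C024771 is 0.36 with all 30 libraries and 0.15 with the 6 libraries of the day.

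The second question was whether the 2 genes followed the same course in both cultivars. The quantity tested was the change in YMR minus the change in HDB. Over the step of the main rise, from day 15 to day 25, the difference was -0.51 (SE 0.55, edgeR adjusted p = 0.485) for MELO3C024771 and -0.66 (SE 0.44, edgeR adjusted p = 0.238) for MELO3C024766, while 41.4% of all genes passed. For MELO3C024766 total-count scaling gave -1.02 (edgeR adjusted p = 0.0457, with 44.6% of genes called) and leaving out replicate 3 of YMR day 15 gave -1.01 (edgeR adjusted p = 0.048), and over the 19 alternatives the adjusted p ran up to 0.925. From day 5 to day 15 the difference for MELO3C024771 was 1.36 (SE 0.59, edgeR adjusted p = 0.0735), against 34.8% of genes called. It passed with DESeq2 (1.35, adjusted p = 0.0407, with 36.8% of genes called) and without replicate 3 of HDB day 5, replicate 3 of HDB day 15 or replicate 3 of YMR day 15 (1.76, 2.04 and 1.61, edgeR adjusted p = 0.0139, 0.00698 and 0.0398), and over the 19 alternatives the adjusted p ran from 0.00698 to 0.396.

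From day 25 to day 30 the difference in change was 0.74 for each gene (SE 0.51 and 0.39), a factor of 1.67 toward YMR. Neither passed in the fit to all libraries (edgeR adjusted p = 0.299 for MELO3C024771 and 0.162 for MELO3C024766), where 30% of all genes did. With only the 12 libraries of these 4 groups both were called, at 0.79 (SE 0.18, edgeR adjusted p = 0.00255) and 0.79 (SE 0.14, edgeR adjusted p = 0.000365), where 41.6% of genes were called. Over the 19 alternatives the adjusted p ran up to 0.414 and 0.255.

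From day 30 to day 35 the difference in change of MELO3C024766 was -0.64 on the log2 scale and did not pass in the fit to all libraries (SE 0.39, edgeR adjusted p = 0.221, with 33.1% of all genes called). It was called at -0.59 (SE 0.14, edgeR adjusted p = 0.00416) in the 12-library fit, where 44.2% of genes were called. The difference for MELO3C024771 was 0.25 (SE 0.51, edgeR adjusted p = 0.776) and did not pass in the 12-library fit either (0.30, edgeR adjusted p = 0.193). Across the whole span from day 25 to day 35, the difference for MELO3C024771 was 0.98 and did not pass with all libraries (SE 0.51, edgeR adjusted p = 0.137, with 36.9% of genes called), and it was called at 1.07 in the 12-library fit (SE 0.20, edgeR adjusted p = 0.000691, with 48.5% called). For MELO3C024766 the same contrast was 0.10 (SE 0.39, edgeR adjusted p = 0.904). Over the alternatives the adjusted p ran up to 0.353 for MELO3C024766 in the last step and up to 0.222 for MELO3C024771 over the span.

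The ratio of the 2 counts within a library needs no scaling between libraries, and the unknown gene lengths cancel when ratios are compared between libraries. MELO3C024771 had 0.578, 2.42 and 2.52 counts for each count of MELO3C024766 in the HDB libraries of day 15 and 1.43, 1.3 and 1.92 in those of YMR. At day 25 the ratios were 6.43, 5.87 and 6.12 in HDB and 5.66, 6.89 and 6.22 in YMR, and at day 30 they were 8.85, 8.32 and 8.37 against 8.45, 8.92 and 8.69. Up to day 30 the cultivars overlapped at every day, and in both the ratio was higher at day 30 than at day 25.

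At day 35 the ratio was 8.03 ± 0.15 in HDB, with libraries at 8.03, 7.89 and 8.18, and 15.1 ± 1.1 in YMR, with libraries at 16.1, 14.0 and 15.3. This is a log2 difference of 0.91, a factor of 1.88, with every YMR library above every HDB library. With 3 libraries against 3 an exact permutation test cannot give a two-sided p below 0.1, and it gave that value (adjusted over the 3 days, p = 0.3). At days 25 and 30 the differences were 0.023 and 0.029 (exact permutation p = 0.9 and 0.5). With the cultivar labels permuted within each of the 3 days, the mean log2 difference over the days was 0.32 (exact permutation test over 8000 regroupings, two-sided p = 0.03), and it rested on day 35: without that day it was 0.026 (exact permutation p = 0.6). Since day 35 alone cannot give a p below 0.1, the lower pooled value also draws on the small differences of days 25 and 30. It is no separate test of day 35. Without replicate 2 of YMR day 25 the p was 0.0595, with libraries of equal number paired it was 0.082, and over all 22 alternatives it ran from 0.00875 to 0.6.

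Whether the change in the ratio differed between the cultivars was examined after the ratios had been seen, in 3 comparisons by exact permutation within days (400 regroupings). The change from day 25 to day 35 was larger in YMR by 0.89 on the log2 scale and that from day 30 to day 35 by 0.88, both with an adjusted p of 0.12 in this exact permutation test (p = 0.06 and 0.08). From day 25 to day 30 the difference was 0.006 (exact permutation p = 0.955). None passed the threshold after adjustment. Permuting labels within days assumes no cultivar difference at either day, which is not the same as an equal change. Day 35 alone cannot give a p below 0.1. How far the p of the 2 comparisons with day 35 fell below that was set by the small differences of the earlier day. These tests therefore cannot decide whether the change in the ratio differed.

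**Figure D4:**
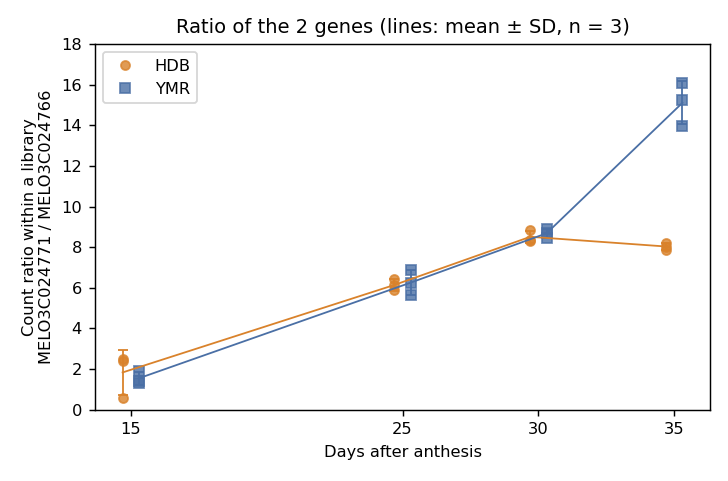
Counts of MELO3C024771 per count of MELO3C024766 in each library of days 15 to 35, with lines and error bars for mean ± SD (n = 3). The cultivars lie together up to day 30, at 8.51 and 8.68, and apart at day 35, at 8.03 in HDB and 15.1 in YMR.

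The genes with the time course most like each of the 2 were taken by Pearson correlation of group means of log2 CPM over the 10 groups, among 13467 other genes that averaged 10 CPM or more in some group. The points of such a correlation share libraries, depth and a large step between days 15 and 25, so the values are a description. MELO3C024771 and MELO3C024766 correlated at r = 0.972, but neither was the nearest match of the other: MELO3C024766 came at place 113 in likeness to MELO3C024771, and MELO3C024771 at place 169 in likeness to MELO3C024766. These places depended strongly on the measure. By Spearman correlation of the same means they were 1735 and 1698, and none of the closest genes named below was among the 3 closest.

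Closest to MELO3C024771 were MELO3C008481 (r = 0.996), MELO3C010776 (0.994) and MELO3C009190 (0.993). MELO3C010776 reached a similar order of level, with 10.2 ± 2.2 CPM in HDB on day 15, 11220 ± 315 on day 25 and 11128 ± 149 on day 35. Its YMR means on those days were 19.2 ± 9.7, 8620 ± 965 and 12920 ± 582 CPM. It was highest at day 30 in both cultivars, at 13017 ± 673 CPM in HDB and 18057 ± 1302.5 CPM in YMR. Its day 5 means, 44.6 ± 2.6 CPM for HDB and 38.8 ± 2.9 for YMR, were above those of day 15. MELO3C008481 was already at 108 ± 19 and 91.3 ± 22 CPM at day 5 and stood at 2688 ± 74 and 2690 ± 450 at day 35. MELO3C009190 peaked at 418 ± 68 CPM at day 35 in HDB and at 492 ± 71 CPM at day 30 in YMR.

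Closest to MELO3C024766 were MELO3C015277 (r = 0.996), MELO3C025524 (0.995) and MELO3C007012 (0.995), all of them at far fewer counts. In HDB, MELO3C015277 had 0.128 ± 0.074, 0.856 ± 0.39 and 41.7 ± 0.54 CPM on days 5, 15 and 25, and in YMR it had 0.18 ± 0.087, 1.67 ± 0.04 and 51.1 ± 9.7 CPM. The means of MELO3C025524 on days 5 and 25 were 8.6 ± 0.14 and 194 ± 12 CPM in HDB, and 10.3 ± 0.7 and 148 ± 25 CPM in YMR. MELO3C007012 had its highest mean at day 25 in HDB, 89.9 ± 1.6 CPM, and at day 30 in YMR, 84.5 ± 6.0 CPM, the same days as MELO3C024766. MELO3C015277 had its highest mean at day 25 in both cultivars and MELO3C025524 at day 30 in both. All 3 had a higher mean at day 15 than at day 5 in both cultivars, days that the choice by correlation had used.

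**Figure D5:**
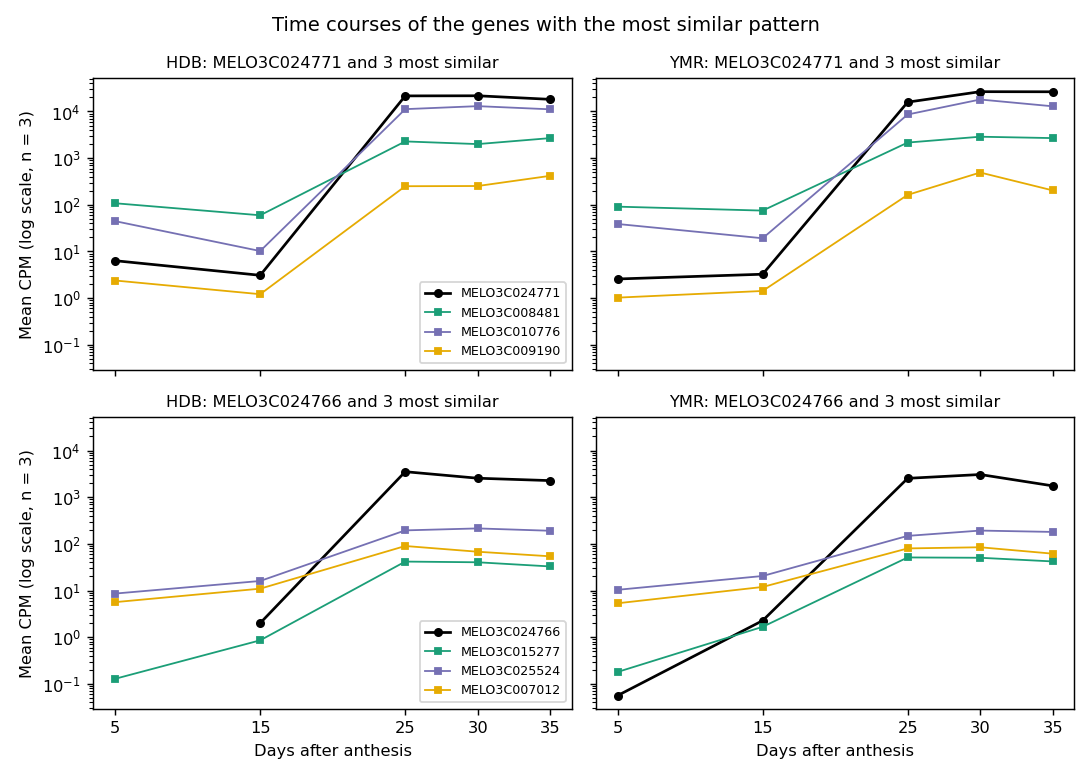
Mean CPM (log axis, n = 3) against days after anthesis for MELO3C024771 (top) and MELO3C024766 (bottom), each with the 3 genes of most similar pattern, in HDB (left) and YMR (right). The day 5 mean of MELO3C024766 in HDB is 0 and is not drawn. The genes most like MELO3C024771 have lower means at day 15 than at day 5 in HDB, and those most like MELO3C024766 have higher ones. They were chosen by correlation over these same groups, so a direction shared with the gene they resemble is partly built in.

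The identifiers between MELO3C024761 and MELO3C024781 were examined as a set, since the 2 genes are close in number. Positions are not given with the identifiers, so closeness in number is all that is stated. Besides the 2 genes the set held 19 identifiers, of which 6 had no read in any library, 10 passed the low-count filter and 4 reached a mean of 10 CPM in some group. The highest group mean among these others was 117 ± 4.8 CPM, for MELO3C024775 in YMR at day 15.

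None of the 4 had a silent start and a steep rise. MELO3C024775 lay between 71.1 and 117 CPM in all groups. MELO3C024776 lay between 9.21 and 28.8 CPM, highest at day 15 in both cultivars. MELO3C024761 averaged 52.3 ± 4.8 CPM in YMR and 23.3 ± 3.0 CPM in HDB on day 35. MELO3C024762 had 23.7 ± 8.1 CPM at day 15 in HDB and 4.79 ± 5.2 in YMR, and at most 0.151 CPM on average at day 30.

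Below these levels, MELO3C024768 had no read at days 5 and 15 and then 3, 10 and 57 counts in HDB and 2, 28 and 90 counts in YMR at days 25, 30 and 35, up to 1.7 ± 0.47 CPM. Between the cultivars, 2, 2, 5, 1 and 6 of the 10 others that were tested passed at days 5, 15, 25, 30 and 35 (edgeR adjusted p under 0.05), where 21.8%, 40.9%, 48.3%, 33.4% and 47.7% of all genes passed. If the 2 genes share stretches of near-identical sequence with each other or with other genes, reads may have been assigned to the wrong one or dropped. How such reads were counted is not stated in the labels.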

How the data were processed

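RNA was sequenced from fruit of 2 melon cultivars at 5 days, 3 libraries per group. Per the labels' protocols, total RNA was taken with Trizol and made into standard Illumina libraries, and the submitters' processing notes name HISAT2 and HTSeq. Their versions, the genome build, annotation and strand setting are not stated. The authors deposited raw read counts per gene, and all 30 columns were matched to samples by title. None of 28628 entries of a melon gene table (USDA_Cmelo_AY_1.0) carries these identifiers (0 matched), so names, positions and sequences are not given and lists of pathway genes or tissue markers could not be applied.

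Counts were tested with edgeR 4.0.16 (R 4.3.3, limma 3.58.1). filterByExpr (minimum count 10, total 15) kept 18426 genes. TMM factors and 1 mean per group were fitted to all 30 libraries with robust quasi-likelihood F tests, two-sided, with Benjamini-Hochberg adjustment over all genes and a threshold of 0.05. The standard error is the absolute log2 difference over the square root of F. CPM for correlations used a prior count of 2 on the log2 scale. Floors (3 counts over a group) cover counting error only. The cultivar test of day 25 was run on simulated data with 1 spread per gene for all groups. Such data cannot show how the test behaves for genes whose spread changes with age.

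No replicate pair was identical (chi-square per degree of freedom 7.35 to 118). Alternatives were RLE factors, total-count scaling, DESeq2 1.42.0, no filter, a replicate block, only the compared groups, and each library left out. Leaving both genes out of the scaling, the tests on changes of the ratio, and the changes between days with single libraries left out were added after the data had been seen. The genes and lists were chosen with earlier results of these data known. Genes named are the 2 members, the 3 most correlated with each, and neighbouring identifiers with a mean of at least 10 CPM in a group. MELO3C024768 was added after its values were seen.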

Additional observations from a re-analysis of the deposited data

How the results depend on the processing

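Of 319 recomputed values of the 20 cultivar tests on the 2 genes, 295 kept direction and side of the threshold, 15 newly passed it, 4 lost it and 5 changed sign. Leaving out 1 library gave 12 of these changes and restricting the fit to the compared groups gave 9. In the restricted fit MELO3C024771 was called at day 25 (-0.50), at day 35 (0.55), from day 25 to 30 (0.79) and from day 25 to 35 (1.07) and lost its day 5 call (-1.28), and MELO3C024766 was called at day 25 (-0.53), at day 35 (-0.37), from day 25 to 30 (0.79) and from day 30 to 35 (-0.59). That fit also lowered the genes called to 2529 at day 5 (4012 with all libraries), to 3459 at day 15 (7537) and to 4028 for the day 5 to 15 change (6406), and raised them to 9354 at day 25 (8893), 6698 for day 25 to 30 (5527), 6997 for day 30 to 35 (6106) and 7840 for day 25 to 35 (6793). Total counts alone called MELO3C024766 at day 25 (-0.82) and from day 15 to 25 (-1.02), and shifted the median over all genes to -0.28 (day 25) and -0.23 (day 30). DESeq2 called MELO3C024771 from day 5 to 15 (1.35). The cause of these changes was not tested.

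With libraries left out in turn, the log2 difference of MELO3C024771 lay between -1.69 and -0.54 at day 5 and between -0.36 and 0.74 at day 15, and its day 5 to 15 difference in change from 0.61 to 2.04. For MELO3C024766 the day 15 difference ran from -0.39 to 0.58 and the day 15 to 25 difference in change from -1.05 to -0.078. The mean log2 ratio difference ran from 0.30 to 0.34, and the differences in its change from -0.063 to 0.078 (day 25 to 30), 0.83 to 0.93 (day 30 to 35) and 0.82 to 0.96 (day 25 to 35). Without replicate 3 of HDB day 5 the genes called at day 5 numbered 2667. For the other neighbouring identifiers all alternatives gave 1 to 2 called at day 5, 0 to 3 at day 15, 1 to 6 at day 25, 0 to 2 at day 30 and 2 to 6 at day 35.

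Libraries of equal replicate number share only the number: among 15 pairs of the same day, 3 had deviations correlated above 0.1. The replicate block changed 0 of the 20 calls on the genes (edgeR), and pairing kept the ratio difference at 0.32 with an exact p of 0.082. Without day 35 the ratio difference was 0.026. By Spearman correlation 0 of the 3 most similar genes were the same for either gene. At days 5 and 15 each library held at most 244 counts of MELO3C024771 and 82 of MELO3C024766, which limits what those days can show.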
